A study of Mus musculus with 13 samples.

Results

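Cells of the greater epithelial ridge, sorted from the newborn mouse cochlea, were compared across all measured genes with cells of a gate for Deiters' and Claudius cells. The 2 groups were taken from the sample titles and hold 5 of the 13 arrays of the series. GER, with 3 arrays (A, B and C), is the GFP-negative fraction with low CD271, high CD146 and CD326 on the surface. DC, with 2 arrays (A and B), is the GFP-negative fraction with low CD271, low CD146 and CD326. All cells came from cochleae of C57BL6 mice 3 days old with the Math1-nGFP transgene, a nuclear GFP reporter of hair cells. The other 8 arrays hold hair cells (HC, 4), a CD271-high fraction that the labels call suspected macrophages (CD271high, 3) and cells from below the basilar membrane (BM, 1). They were used to estimate the spread between arrays and to show where else a gene was read. Whether replicates are separate animals, how many cochleae were pooled and where each gate was drawn is not in the labels. The p-values therefore measure only the spread between these arrays, and that spread may be technical.

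The greater epithelial ridge is the tall columnar epithelium on the medial side of the developing organ of Corti. It secretes much of the tectorial membrane, drives spontaneous activity before hearing starts and later regresses to form the inner sulcus. Deiters' cells are supporting cells under the outer hair cells, and Claudius cells line the floor of the duct lateral to the organ of Corti. The lateral side of the duct is patterned by Bmp, Fgf and Wnt signals, and supporting cells of the newborn cochlea can divide or turn into hair cells, which is why the genes of neighbouring epithelial types are of interest.

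Of 10088 genes tested, 420 passed (4.16%): 90 were higher in GER (0.892%) and 330 were lower (3.27%). Counts of list and family members given below are to be set beside these shares. A difference is given as GER minus DC on the log2 scale of normalized intensity, ± the standard error (SE) of the fit, and a gene passed at an adjusted p below 0.05. The differences towards DC were larger as well as more frequent. By fitted value, at least 4-fold differences numbered 5 among the genes higher in GER and 112 among those lower, and at least 8-fold differences numbered 0 and 17. Of the 90 higher genes, 26 were not detected on any DC array, and of the 330 lower genes, 105 were not detected on any GER array. For such a gene a fold given as "at least" is a bound, and it holds only for levels after the background correction used here. The median difference over all genes was 0.029 and the median SE 0.237. The arrays of the gates did not overlap for any of the 420 genes. That was true of 31.9% of all genes, so it says little by itself.

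**Figure D1:**
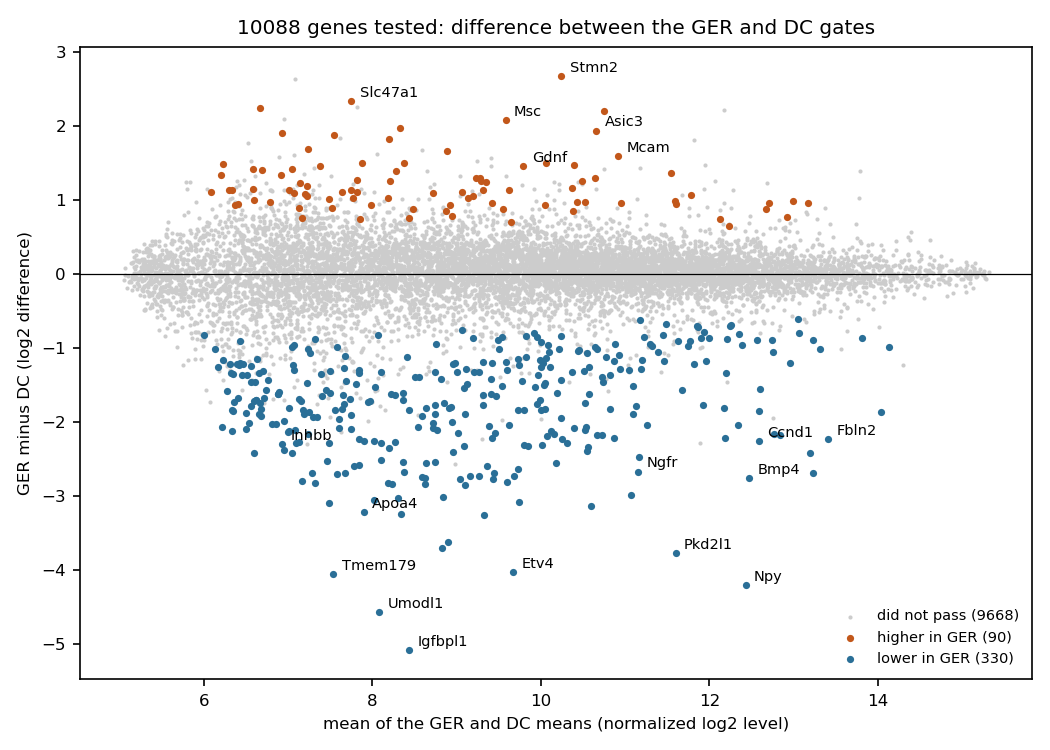
Each point is 1 of 10088 genes, with the average level over both gates on the x axis and the GER minus DC difference on the y axis, both in log2 units. The 90 genes higher in GER reach 2.68 (Stmn2), while the 330 lower genes reach a fitted -5.09 (Igfbpl1, not detected in GER) and spread over the whole range of levels.

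GER and DC were close to each other as whole profiles. Across genes, which are not replicates of each other, Pearson's r ran at 0.978 to 0.982 among the GER arrays, 0.987 between the DC arrays and 0.956 to 0.972 between the gates. Per array, 10433 to 10674 probes were detected in GER and 10938 to 11357 in DC. Both DC arrays and GER A and B lay on the same beadchip, and GER C on another. With the arrays of that beadchip alone, 79 genes were higher in GER and 278 lower, and with the beadchip as a block, 76 and 300.

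Fewer genes passed when an array was left out. Without DC A, 33 genes were higher in GER and 209 lower, and without DC B, 18 and 141. In these fits the DC array that remained was assumed to vary like the other groups. Over 18 other settings and left-out arrays, 8 of the 90 higher genes and 120 of the 330 lower genes passed every time. Where leaving out 1 array ended the call of a gene described here, its adjusted p or its difference without that array is given.

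The transcripts of the sort proteins came first. Mcam, which encodes CD146, had normalized log2 levels of 11.59, 11.69 and 11.87 on the GER arrays, against 10.08 and 10.16 on the DC arrays (1.59 ± 0.26, adjusted p = 0.00358). Ngfr, which encodes CD271 and is known from pillar cells, had levels of 10.21, 9.94 and 9.31 in GER, against 12.13 and 12.86 in DC (-2.67 ± 0.35, adjusted p = 0.00096). Mcam differed in the direction of the sort, while Ngfr differed although both gates were drawn low for its protein. Atoh1, the gene behind the reporter, stayed below detection on the GER and on the DC arrays. The transcript of CD326, Epcam, was not analysed here.

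Marker lists were read to see which cells each gate held, and their counts are to be set beside 0.892% higher, 3.27% lower and a median of 0.029 over all genes. Of 15 measured Deiters cell genes, 0 were higher and 9 lower in GER, with a median difference of -1.39, and of 13 pillar cell genes, 0 were higher and 11 lower, with a median of -2.69. Of 12 genes of the lesser ridge, Claudius cells and outer sulcus, 4 were lower (median -0.70) and named Bmp4, Lmo3, Meis1 and Rbp7, of which 2 passed without DC A and 1, Lmo3, without DC B. Of 19 measured genes of the greater epithelial ridge list, 1 was higher (Stmn2) and 2 were lower (Bmper and Fst), with a median of -0.01, and 6 higher and 2 lower had an unadjusted p under 0.05. The mean log2 level of that list was 11.46 to 11.62 in GER, against 11.45 and 11.40 in DC. Tecta and Otoa, which encode proteins of the tectorial membrane and its attachment, were read at 15.22 to 15.27 and 13.76 to 14.23 in GER, against 15.18 to 15.34 and 14.19 to 14.33 in DC. Of 11 genes shared by supporting cells, such as Sox2, 0 passed in either direction (median 0.01). The label of the DC gate names Deiters' and Claudius cells, and the pillar cell list, which the label does not name, had the largest shift of the cell lists.

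Each array holds RNA of many cells, so fewer cells of a type and less RNA per cell cannot be told apart. Lists of hair cells and of cells outside the epithelium were read in both gates. The mean log2 level of 19 hair cell genes was 7.45 to 7.61 in GER, against 7.78 and 7.95 in DC and 12.38 to 12.54 on the HC arrays. The mean of 14 macrophage genes was 5.76 to 6.03 in GER, where 1 of 14 was detected on each array, against 6.22 in DC A (1 of 14 detected) and 6.92 in DC B (5 of 14). At an unadjusted p under 0.05 in the same fit, 7 of the 14 were lower in GER and 0 higher. Of the 19 hair cell genes, 5 were lower and 1 higher at that p, which 1382 of all 10088 genes reached. The mean of 12 endothelial genes was 7.59 in GER A, 8.14 in GER B and 9.07 in GER C, against 7.60 and 7.46 in DC, and apart from Mcam none of the 12 passed. The mean of 9 neuronal genes was 8.94 to 9.14 in GER, against 8.54 and 8.48 in DC. Its 1 member that passed was Stmn2, which also stands in the ridge list, and 2 higher and 0 lower members had an unadjusted p under 0.05. Each GER and DC array detected 5 of the 9, while Nefm and Gap43 were not well above background on any of the 5 arrays. The mean of 11 genes of mesenchyme was 8.52 to 8.69 in GER, against 8.90 and 9.17 in DC. The part of such cells in the differences that follow was not tested.

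**Figure D2:**
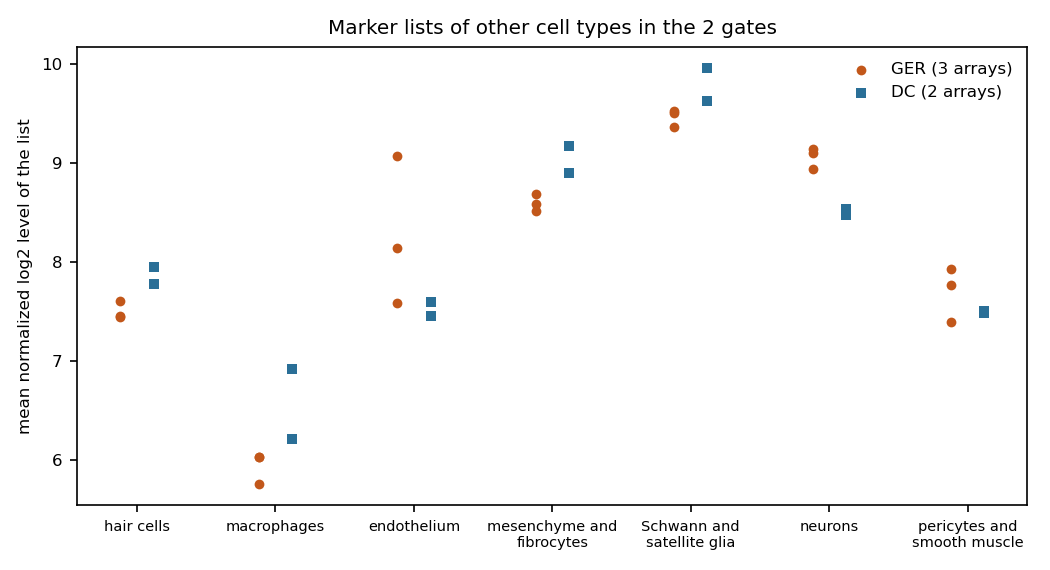
The mean normalized log2 level of each marker list (y axis) is shown for the 3 GER arrays and, to their right, the 2 DC arrays. Macrophage genes are highest in DC B (6.92), endothelial genes in GER C (9.07), and the hair cell list lies higher in DC (7.78 and 7.95) than in GER (7.45 to 7.61).

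Promoter windows were read for a look at the sequences of genes that differed. RefSeq windows of 300 bases (250 before the start of the gene and 50 after it, build GRCm38.p6) were found for 67 of the 90 higher genes, 243 of the 330 lower genes and 7761 of all 10088, the first window listed being used. Short strings were searched on both strands, and no string contains another. CCGGAA, the core bound by Ets factors such as Etv4 and Etv5, stood in 9.0% of the windows of higher genes and 11.1% of those of lower genes, against 27.3% of all genes tested. TATAAA stood in 10.4% and 11.1%, against 7.5%. CAGCTG stood in 16.4% and 16%, against 15.1%, and ACAATG in 7.5% and 7.8%, against 7.0%. The median number of CpG pairs per window was 17 in higher and 15 in lower genes, against 20 in all genes. Over all 32851 windows of the table, 14.9% held CCGGAA and 13.6% held TATAAA. These shares are descriptions, and a match is not a site. The windows of 4 genes discussed below are shown because they hold 1 match each, TATAAA 31 bases before the start in Gdnf and 27 bases before it in Pmch, and CCGGAA, read on the opposite strand, 102 bases before the start in Ngfr and 95 bases before it in Bmp4. Capitals mark the match, and each window reads 5′ to 3′ on the strand of the gene.
Gdnf, chr15:7809798-7810097, plus strand: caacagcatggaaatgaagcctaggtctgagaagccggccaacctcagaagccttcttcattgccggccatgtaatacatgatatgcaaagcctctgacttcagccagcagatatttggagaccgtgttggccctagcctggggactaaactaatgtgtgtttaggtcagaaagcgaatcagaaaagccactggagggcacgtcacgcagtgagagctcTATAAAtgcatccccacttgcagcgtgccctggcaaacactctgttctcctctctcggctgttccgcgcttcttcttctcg
Pmch, chr10:88090822-88091121, plus strand: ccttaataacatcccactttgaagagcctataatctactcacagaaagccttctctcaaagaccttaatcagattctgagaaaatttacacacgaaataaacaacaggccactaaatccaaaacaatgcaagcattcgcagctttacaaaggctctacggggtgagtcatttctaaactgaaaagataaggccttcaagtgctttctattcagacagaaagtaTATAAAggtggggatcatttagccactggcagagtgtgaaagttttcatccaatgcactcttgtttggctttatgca
Ngfr, chr11:95587649-95587948, minus strand: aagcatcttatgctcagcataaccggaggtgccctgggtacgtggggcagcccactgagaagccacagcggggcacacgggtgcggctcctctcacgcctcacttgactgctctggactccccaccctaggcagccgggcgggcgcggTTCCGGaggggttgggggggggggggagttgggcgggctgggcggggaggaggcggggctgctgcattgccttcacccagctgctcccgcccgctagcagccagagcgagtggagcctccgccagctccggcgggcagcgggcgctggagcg
Bmp4, chr14:46390620-46390919, minus strand: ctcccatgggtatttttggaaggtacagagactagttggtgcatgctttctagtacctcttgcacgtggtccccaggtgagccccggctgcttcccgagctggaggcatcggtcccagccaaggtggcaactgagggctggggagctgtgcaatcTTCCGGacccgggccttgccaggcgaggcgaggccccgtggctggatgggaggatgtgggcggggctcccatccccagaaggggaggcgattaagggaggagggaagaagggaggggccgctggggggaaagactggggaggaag

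By fitted difference, the genes at least 4-fold higher in GER were Stmn2, Slc47a1, Uts2b, Upp1 and Msc. Upp1 differed by 2.21 (adjusted p = 0.0391). Its call ended without GER B (adjusted p = 0.086) or GER C (0.12), and without DC A (difference 2.05) or DC B (2.36). Stmn2, which encodes a tubulin-binding protein best known from growing axons, had the largest difference. Its log2 levels were 11.30, 11.54 and 11.89 in GER, against 8.90 and 8.90 in DC (2.68 ± 0.31, adjusted p = 0.000407). All GER arrays lay above all DC arrays, and HC (mean 9.01), CD271high (8.96) and BM (7.58) were near or under the DC level. Msc, which encodes the basic helix-loop-helix repressor musculin, had 10.72, 10.52 and 10.62 in GER, against 8.78 and 8.30 in DC (2.08 ± 0.31, adjusted p = 0.00205). GER was again the highest of the 5 populations, with HC at a mean of 8.32.

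Gdnf, the glial cell line-derived neurotrophic factor, had 10.54, 10.46 and 10.55 in GER, against 9.06 and 9.07 in DC (1.46 ± 0.22, adjusted p = 0.00257). The arrays of each gate were almost level with one another. Artn, which encodes artemin, another ligand of the same family, had 9.82, 10.37 and 10.36 in GER, against 9.07 and 9.04 in DC (1.13 ± 0.23, adjusted p = 0.0131). The call of Artn ended without GER C (adjusted p = 0.052), DC A (0.092) or DC B (0.13), and its highest mean was in HC (10.97). Nrtn, the third ligand measured, differed by -0.11 and did not pass. This family was grouped after its values were seen.

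Plxna2, a receptor for semaphorins, had 12.27, 12.17 and 12.23 in GER, against 10.85 and 10.88 in DC (1.36 ± 0.22, adjusted p = 0.00312). Of 19 semaphorins, plexins and neuropilins, 1 was higher and 1 lower (Sema5a, a semaphorin, at -2.16, adjusted p = 0.00358, and 0.064 without DC B). Fam107b had 9.57, 9.54 and 10.04 in GER, against 8.31 and 7.79 in DC (1.67 ± 0.24, adjusted p = 0.00186). Rflna, which encodes an actin-bundling regulator of cartilage and was picked out after its values were seen, had 11.34, 11.51 and 11.44 in GER, against 10.52 and 10.44 in DC (0.95 ± 0.14, adjusted p = 0.00167). With Stmn2, Msc, Mcam, Gdnf and Plxna2, these 2 genes passed with every left-out array.

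Some channels and transporters were among the higher genes, but their lists held as many or more lower ones. Of 39 sodium, calcium and chloride channels, 2 were higher and 2 lower, and of 175 solute carriers, 3 were higher and 6 lower. That is 10.3% and 5.14% passing, against 4.16% of all genes. Slc47a1, which encodes an extruder of organic cations, had 8.19, 8.94 and 9.63 in GER, against 6.96 and 6.2 in DC (2.34 ± 0.40, adjusted p = 0.00542, and 0.10 without DC B). Asic3, an acid-sensing sodium channel, had 11.19, 11.62 and 12.06 in GER, against 9.88 and 9.50 in DC (1.94 ± 0.32, adjusted p = 0.00371, and 0.072 without DC B). Its relative Asic1 went the other way, with 6.05, 7.33 and 7.13 in GER, against 8.65 and 8.28 in DC (-1.63 ± 0.33, adjusted p = 0.0143). The call of Asic1 ended without DC A (adjusted p = 0.15) and without DC B (0.076), and within beadchip 1 (0.075). Trpm6, a magnesium channel, was not detected on either DC array and was at least 1.80-fold higher in GER (adjusted p = 0.00738, and 0.10 without DC B).

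The higher genes Snap91, Ppfia3 and Mpp4 are known from vesicle release and synapses. No list of such genes was counted, and the vesicle genes Slc17a6 and Rab3b, described below, were lower. Snap91, a clathrin assembly protein, was not detected on either DC array and was at least 2.16-fold higher in GER (adjusted p = 0.00247, and 0.050 without DC B). Ppfia3, a liprin of presynaptic sites, had 7.99, 8.81 and 8.63 in GER, against 7.30 and 5.91 in DC (1.87 ± 0.41, adjusted p = 0.0213). Its call ended without GER B (0.075), GER C (0.072) or DC B (0.31), and as the mean of all its probes, where the difference was 1.03 (adjusted p = 0.0913). Mpp4, a scaffold of photoreceptor synapses, had 9.45, 9.20 and 9.31 in GER, against 7.67 and 7.02 in DC (1.98 ± 0.44, adjusted p = 0.023). Its call ended without any 1 of the 5 arrays, with adjusted p values from 0.053 to 0.27. Ppfia3 was highest on the HC arrays (mean 11.2), while Mpp4 was highest in GER.

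Espn, which encodes the actin bundler espin of hair bundles, was higher in GER although the hair cell list as a whole was not. It had 11.10, 11.14 and 11.10 in GER, against 9.90 and 9.80 in DC (1.26 ± 0.21, adjusted p = 0.00363, and 0.061 without DC B). Sparcl1, a secreted matrix protein of the inner phalangeal and border cell list, had 11.25, 11.28 and 11.34 in GER, against 10.22 and 9.76 in DC (1.30 ± 0.20, adjusted p = 0.00264, and 0.061 without DC B). Alcam, an adhesion molecule, had 10.86, 10.37 and 11.19 in GER, against 9.26 and 9.36 in DC (1.497 ± 0.28, adjusted p = 0.00809, and 0.078 and 0.073 without DC A and DC B). Col11a1, a fibrillar collagen chain of the tectorial membrane, was not detected in DC and was at least 2.21-fold higher in GER (adjusted p = 0.0438), with the call lost without any 1 of the 5 arrays (0.065 to 0.26).

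Some large differences did not pass. Crabp1, which encodes a retinoic acid-binding protein, had 13.16, 13.14 and 13.53 in GER, against 11.20 and 10.93 in DC, a difference of 2.21 ± 0.85 with an adjusted p of 0.238. The gates did not overlap, and the SE is that of the fit over all 13 arrays. Epyc, a matrix proteoglycan, had 14.50, 13.92 and 14.43 in GER, against 13.24 and 13.29 in DC (1.02 ± 0.44, adjusted p = 0.319).

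**Figure D3:**
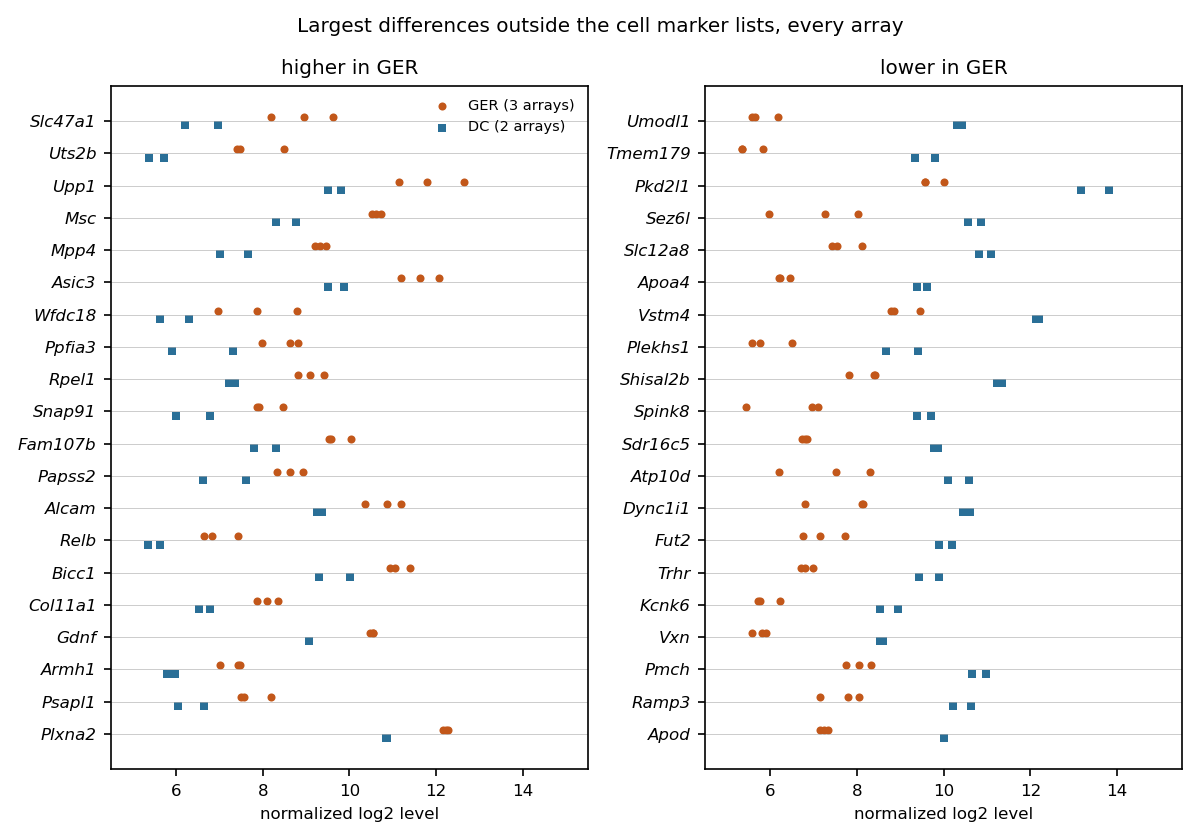
Normalized log2 levels (x axis) on each of the 3 GER arrays (circles) and 2 DC arrays (squares) are shown for the 20 highest and 20 lowest genes outside the cell marker lists. No gene shown overlaps between the gates, the GER arrays of Slc47a1 and Upp1 spread over more than 1 unit, and those of Msc and Gdnf nearly coincide.

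Genes lower in GER, and so higher in DC, included the largest differences of the comparison. Igfbpl1, which encodes a secreted protein related to the insulin-like growth factor binding proteins, had 6.09, 6.18 and 5.40 in GER, where it was not detected, against 10.65 and 11.30 in DC. It was at least 13.1-fold lower in GER (adjusted p = 1.76e-06). Umodl1, an uromodulin-like membrane protein, had 5.65, 5.57 and 6.17 in GER, again not detected, against 10.32 and 10.42 in DC. It was at least 8.60-fold lower in GER (adjusted p = 7.39e-06). For both genes HC held a level between the gates (means of 8.6 and 8.4) and DC was the highest population.

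Among ion channels and transporters, Pkd2l1, a polycystin cation channel, had 9.56, 10.01 and 9.56 in GER, against 13.17 and 13.80 in DC (-3.78 ± 0.33, adjusted p = 7.25e-05), which is 13.7-fold lower. Slc12a8, a transporter of the cation-chloride family, had 8.12, 7.55 and 7.42 in GER, against 10.83 and 11.09 in DC (-3.26 ± 0.38, adjusted p = 0.000445). Outside DC it was low in every population, with HC at 6.62. Kcnk6, a potassium leak channel, and Kcnc4, a voltage-gated potassium channel, were not detected in GER, and their bounds were 2.77-fold and 2.57-fold lower in GER (adjusted p = 0.000343 and 0.000751). These 2 were the only potassium channels of 31 measured that passed (6.45%, near the 4.16% of all genes). They were highest in CD271high (Kcnk6, mean 11.36) and BM (Kcnc4, 9.42). As the mean of all its probes, Kcnk6 had a fitted difference of -1.85, against -2.83 for the probe used.

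Subunits of the epithelial sodium channel, which takes up sodium across the apical membrane, were lower in GER in 2 of 3 cases. Scnn1g was not detected in GER, with 5.74, 6.17 and 5.94, against 7.98 and 8.18 in DC, and was at least 1.76-fold lower (adjusted p = 9.89e-05). Scnn1b had 7.38, 7.83 and 7.20 in GER, against 9.58 and 10.45 in DC (-2.54 ± 0.42, adjusted p = 0.00399, and 0.086 without DC B). Scnn1a differed by -0.09 and did not pass. This family, like those of carbonic anhydrases and peptide hormones below, was grouped after its values were seen. Of 9 carbonic anhydrases, 2 were lower: Car14 at -2.18 (adjusted p = 0.00103) and Car13 at -1.39 (adjusted p = 0.00312, and 0.070 without DC B). Of 175 solute carriers, 3 were higher and 6 lower, and Slc17a6, the vesicular glutamate transporter of many neurons, was at least 1.94-fold lower (adjusted p = 0.00184).

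Peptide hormones and their receptors formed a group of 11 measured genes, of which 1 was higher and 7 lower, with a median of -2.16. Over all genes, 0.892% were higher and 3.27% lower. As the group was formed after its values were seen, its count and median are descriptions. Npy, which encodes neuropeptide Y and is a marker of pillar cells, had 10.49, 10.59 and 9.90 in GER, against 14.38 and 14.69 in DC (-4.21 ± 0.32, adjusted p = 4.12e-05). Its level in DC was 18.4-fold that in GER, and HC came next with a mean of 13.5. Pmch, the precursor of melanin-concentrating hormone, had 8.05, 8.33 and 7.75 in GER, against 10.97 and 10.66 in DC (-2.77 ± 0.30, adjusted p = 0.000233). It was lower than in GER in each of the other 3 populations, with means of 5.0 to 5.8.

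Thyrotropin-releasing hormone and its receptor were lower together. Trhr, the receptor, had 6.70, 6.79 and 6.98 in GER, where it was not detected, against 9.43 and 9.88 in DC, at least 5.25-fold lower (adjusted p = 9.89e-05). Trh, the hormone precursor, had 7.11, 6.995 and 6.78 in GER, also not detected, against 9.30 and 9.19 in DC, at least 3.95-fold lower (adjusted p = 0.000244). Trh was highest in HC, with a mean of 12.33. Ramp3, which modifies receptors for adrenomedullin and amylin, had 7.79, 7.14 and 8.04 in GER, against 10.22 and 10.63 in DC (-2.77 ± 0.28, adjusted p = 0.000165). Uts2b, a urotensin precursor, was the 1 higher gene of the group, at least 1.77-fold (adjusted p = 0.0085, and 0.093 and 0.062 without DC A and DC B). Crhbp, which binds corticotropin-releasing hormone, had 11.83, 11.92 and 11.31 in GER, against 13.75 and 13.94 in DC (-2.16 ± 0.34, adjusted p = 0.00322, and 0.054 without DC B). Cckbr, a cholecystokinin receptor not detected in GER, passed at an adjusted p of 0.0141 (0.12 and 0.11 without DC A and DC B). Trh, Crhbp and Cckbr were picked out after their values were seen.

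**Figure D4:**
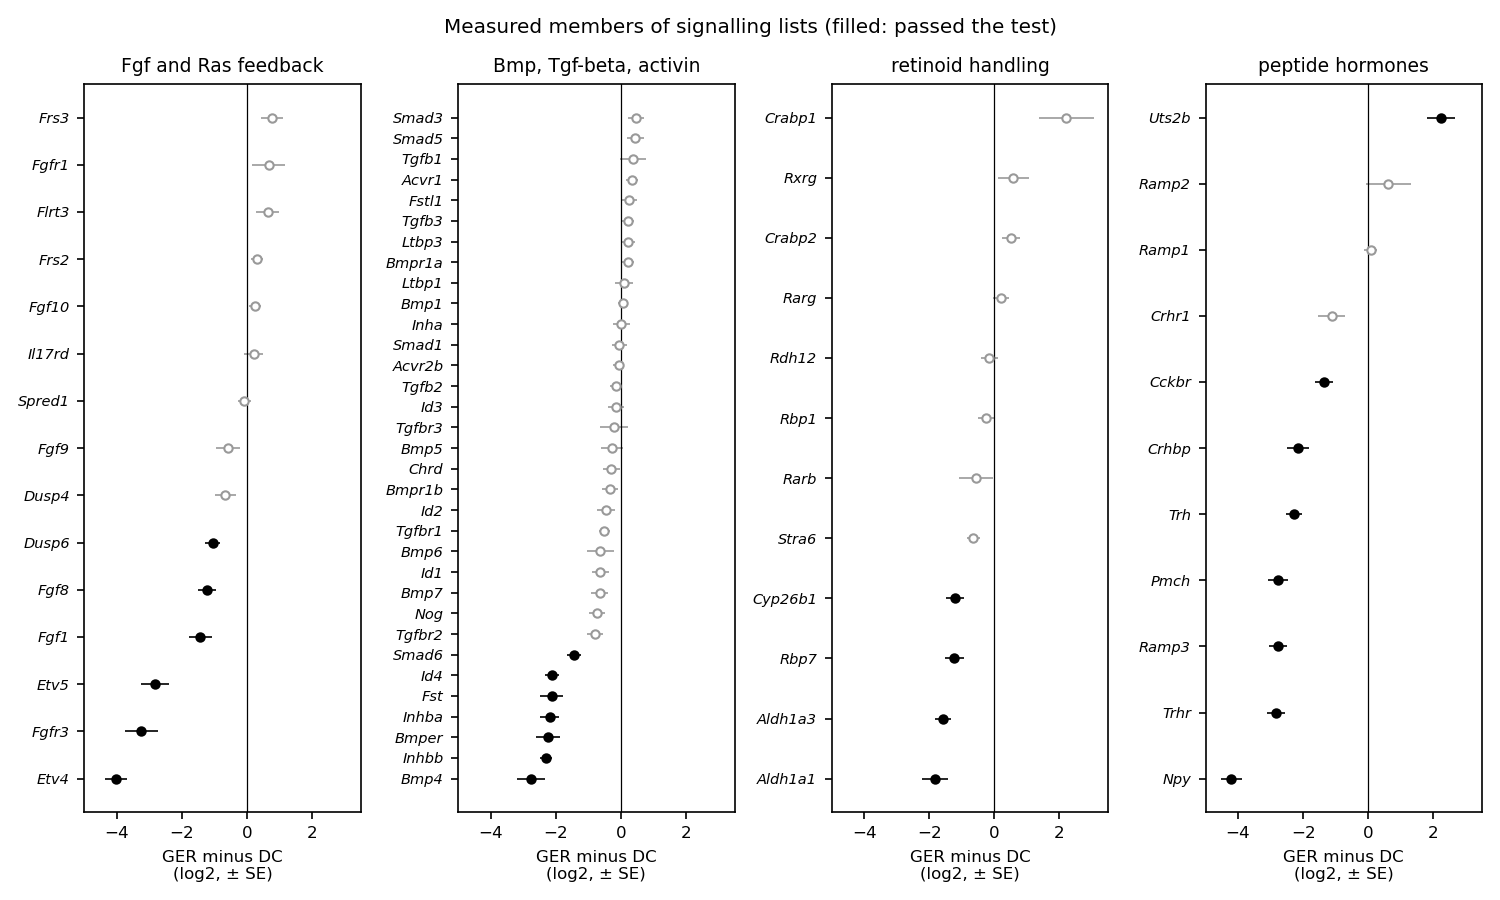
GER minus DC differences on the log2 scale (x axis), with their SE, are shown for every measured member of 4 lists, filled where the gene passed. Of the filled members, only Uts2b lies to the right of 0, and Etv4 (-4.03) and Npy (-4.21) lie farthest to the left.

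Genes of Fgf signalling were lower in GER in 6 of 15 cases and higher in 0, with a median of -0.57. That is 40% passing, against 4.16% of all genes. Fgfr3 encodes the receptor that keeps pillar and Deiters' cells in their fate. It had 7.20, 7.09 and 5.87 in GER, not detected, against 9.96 and 9.99 in DC, at least 6.54-fold lower (adjusted p = 0.00311). Etv4 and Etv5 encode Ets factors induced by Fgf receptors. Etv4 had 7.53, 8.21 and 7.23 in GER, against 11.47 and 11.91 in DC (-4.03 ± 0.33, adjusted p = 4.94e-05). Etv5 had 7.08, 6.43 and 6.80 in GER, not detected, against 9.56 and 9.63 in DC, at least 5.05-fold lower (adjusted p = 0.00213).

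Weaker calls completed that list. Dusp6, a phosphatase that feeds back on Erk, had 12.35, 12.45 and 11.89 in GER, against 13.30 and 13.27 in DC (-1.05 ± 0.23, adjusted p = 0.0237). Its call ended without GER C (adjusted p = 0.082), DC A (0.16) or DC B (0.17). The ligands Fgf1 and Fgf8 were near background in both gates and highest in HC. Fgf1 passed at an adjusted p of 0.0472, which was 0.13 without GER B, 0.099 without GER C, 0.39 without DC A and 0.088 without DC B. Fgf8, picked out after its values were seen, passed at 0.0193, which was 0.24 without DC A and 0.072 without GER C. Fgf10, the ligand of the greater ridge, had means of 13.98 in GER and 13.73 in DC and did not pass (0.25 ± 0.17). The count of 6 was 3 without GER C, 3 without DC A and 4 without DC B.

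Bmp and activin genes were lower in 7 of 33 cases and higher in 0, with a median of -0.28 (21.2% passing, against 4.16% of all genes). Bmp4, a morphogen of the lateral duct, had 10.99, 11.51 and 10.78 in GER, against 13.56 and 14.14 in DC (-2.76 ± 0.44, adjusted p = 0.00322, and 0.064 without DC B). In HC, CD271high and BM it was between 8.63 and 11.78. Inhba and Inhbb encode the beta subunits of activins. Inhba had 9.52, 10.08 and 9.11 in GER, against 11.52 and 11.98 in DC (-2.18 ± 0.29, adjusted p = 0.00096). Inhbb was not detected in GER and was at least 1.76-fold lower there (adjusted p = 4.94e-05).

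Fst, which encodes the activin trap follistatin and stands in the ridge list, had 8.88, 9.69 and 8.61 in GER, against 11.10 and 11.27 in DC (-2.12 ± 0.35, adjusted p = 0.00362, and 0.059 without DC B). Bmper, a Bmp-binding secreted protein, had 9.17, 9.24 and 8.99 in GER, against 11.35 and 11.38 in DC (-2.23 ± 0.38, adjusted p = 0.00463, and 0.061 without DC B). Among targets, Id4 had 9.31, 9.81 and 9.30 in GER, against 11.51 and 11.66 in DC (-2.11 ± 0.21, adjusted p = 0.000165), while Id1, Id2 and Id3 differed by -0.63, -0.44 and -0.15 and did not pass. Smad6, an intracellular inhibitor picked out after its values were seen, was lower by 1.44 (-1.44 ± 0.21, adjusted p = 0.00167). Of the 7 genes, 4 passed without DC B.

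Retinoid genes were lower in 4 of 12 cases and higher in 0, with a median of -0.42 (33.3% passing, against 4.16% of all genes). Aldh1a3 and Aldh1a1 make retinoic acid and Cyp26b1 degrades it. Aldh1a3 was not detected in GER, with 5.48, 5.59 and 5.38, against 6.97 and 7.17 in DC (adjusted p = 0.00302, and 0.055 without DC B). Aldh1a1 had 9.44, 8.85 and 8.37 in GER, against 10.59 and 10.84 in DC (-1.83 ± 0.41, adjusted p = 0.023), and Cyp26b1 had 8.996, 8.80 and 8.63 in GER, against 9.995 and 10.04 in DC (-1.21 ± 0.28, adjusted p = 0.029). Neither passed without DC A (adjusted p = 0.11 and 0.15) or DC B (0.21 and 0.21), nor without GER B or GER C (0.065 to 0.098). Rbp7, a retinol-binding protein not detected in GER, had a bound of 1.33-fold lower (adjusted p = 0.0371, with 0.065 to 0.40 without GER A, GER C, DC A or DC B). The count of 4 was 3 without GER A, 2 without GER B, 1 without GER C or DC A and 0 without DC B.

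Of 174 transcription factors measured, 4 were higher and 15 lower, with a median of 0.00, against 90 higher and 330 lower over all genes. Prox1, a homeobox factor of pillar and Deiters' cells, had 7.36, 6.08 and 7.46 in GER, against 10.46 and 10.89 in DC (-3.71 ± 0.47, adjusted p = 0.000751). Lmo3, a LIM-only factor, had 8.96, 8.80 and 9.15 in GER, against 11.12 and 11.22 in DC (-2.20 ± 0.27, adjusted p = 0.000623). Hey2, a repressor downstream of Notch and Fgf, had 9.45, 9.30 and 9.04 in GER, against 11.26 and 11.17 in DC (-1.95 ± 0.19, adjusted p = 0.000129). It was the only one of 23 Notch genes that passed.

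Homeobox and T-box factors were read as families chosen after their values were seen. Meis2 was at least 3.25-fold lower in GER (adjusted p = 0.000419) and Irx2 at least 2.60-fold lower (adjusted p = 0.00136), both without detection in GER, and Irx2 was highest in HC (mean 12.17). Meis1 differed by -1.37 (adjusted p = 0.0141, and 0.079 and 0.15 without DC A and DC B). Of 5 T-box factors, Tbx1 differed by -2.27 (adjusted p = 0.00342, and 0.072 without DC B) and Tbx3 by -2.07 (adjusted p = 0.023, and 0.11 and 0.20 without DC A and DC B, and 0.070 and 0.076 without GER A and GER C). Among the higher factors, Elf3, an epithelial Ets factor, differed by 1.13 (adjusted p = 0.0327) and Nr4a2, an orphan nuclear receptor of the immediate-early kind, by 0.88 (adjusted p = 0.0179). Elf3 and Nr4a2 lost their calls without GER B, GER C, DC A or DC B, with adjusted p values from 0.061 to 0.23. The counts of 4 and 15 were 0 and 8 without DC B, and 0 and 13 without GER C.

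Of 6 apolipoproteins, grouped after their values were seen, 4 were lower in GER, and those 4 passed with every left-out array. The share lower over all genes was 3.27%. Apoa4, a carrier of intestinal lipoproteins, was not detected in GER, with 6.46, 6.21 and 6.197, against 9.38 and 9.62 in DC, and was at least 4.73-fold lower (adjusted p = 7.88e-06). Apod had 7.15, 7.23 and 7.34 in GER, against 9.999 and 10.004 in DC (-2.76 ± 0.33, adjusted p = 0.000495). Apoc1 and its chromosomal neighbour Apoe differed by -2.73 (adjusted p = 0.000863) and -2.22 (adjusted p = 0.000233). Apod was highest in BM and Apoe in CD271high, whereas Apoa4 and Apoc1 had their highest means in DC. For Apoc1 CD271high was close behind, with a mean of 10.76, against 11.04 in DC, while Apoa4 had a mean of 5.31 in CD271high. Fabp3, a fatty acid-binding protein of muscle, differed by -2.51 (adjusted p = 0.00147).

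Of 5 secreted ribonucleases, a family chosen after its values were seen, 4 were lower, against 3.27% of all genes. Rnase6 had 5.15, 5.22 and 5.44 in GER, not detected, against 7.37 and 7.43 in DC, at least 1.10-fold lower (adjusted p = 4.94e-05). Rnase1 had 11.91, 12.01 and 12.05 in GER, against 14.36 and 14.47 in DC (-2.43 ± 0.45, adjusted p = 0.00843, and 0.061 and 0.099 without DC A and DC B). Rnase4 differed by -1.77 (adjusted p = 0.0076, and 0.061 and 0.088 without DC A and DC B) and Rnase2a, also not detected in GER, was at least 1.13-fold lower (adjusted p = 0.000987). These genes lie next to each other on chromosome 14 and are related in sequence, so probes may share signal. As the mean of all its probes, Rnase4 differed by -1.14. Nt5e, the ectoenzyme that makes adenosine, had 9.04, 8.64 and 8.37 in GER, against 10.99 and 11.03 in DC (-2.33 ± 0.40, adjusted p = 0.00547, and 0.068 without DC B).

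Matrix and adhesion genes were read next. Fbln2, which encodes the matrix protein fibulin 2, had 12.47, 12.26 and 12.16 in GER, against 14.47 and 14.58 in DC (-2.23 ± 0.17, adjusted p = 4.12e-05), and BM was close to DC at 14.36. Pdgfra, the other member of the mesenchyme list that passed, differed by -1.28 (adjusted p = 0.00196). Lama2, a laminin chain, was not detected in GER and was at least 2.71-fold lower (adjusted p = 0.000751). Enzymes that add 3-O-sulfate to heparan sulfate, a family chosen after its values were seen, were lower in 3 of 3 cases, against 3.27% of all genes. They were led by Hs3st3a1 (at least 5.48-fold, adjusted p = 0.000244) and Hs3st1 (-1.85 ± 0.24, adjusted p = 0.00096). Hs3st6, at -1.13, passed at an adjusted p of 0.0444 and in none of the 5 fits with 1 array left out (0.072 to 0.38). Of 29 collagen chains 1 was higher and 3 lower (13.8% passing, against 4.16% of all genes).

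Ephb1, an ephrin receptor, had 9.91, 10.44 and 10.09 in GER, against 11.90 and 12.19 in DC (-1.90 ± 0.22, adjusted p = 0.000467). S100b, a calcium-binding protein of pillar cells, was not detected in GER, with 6.09, 6.49 and 6.38, against 8.67 and 9.36 in DC, and was at least 3.37-fold lower (adjusted p = 0.000226). Ccnd1, which encodes cyclin D1, had 11.39, 11.53 and 11.44 in GER, against 13.59 and 13.84 in DC (-2.27 ± 0.23, adjusted p = 0.000165). It was the only one of 24 cell cycle genes that passed, and Mcm6, a subunit of the replicative helicase, differed by 0.15 ± 0.44. Of 36 Wnt genes, 4 were lower and 0 higher (median -0.02), which is 11.1% passing, against 4.16% of all genes. They were led by Frzb, a secreted Wnt antagonist, at -2.05 (adjusted p = 0.01). The call of Frzb ended without DC A (difference -2.2) or DC B (-1.9). Lgr5, the R-spondin receptor of supporting cells with progenitor capacity, had 9.61, 9.23 and 8.94 in GER, against 10.32 and 10.45 in DC (-1.13 ± 0.28, adjusted p = 0.044, and 0.11 to 0.30 without any of GER B, GER C, DC A or DC B). The count of 4 was 1 without DC A or DC B.

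Genes known from hair cells were also among the lower genes. Of 19 hair cell genes measured, 3 were lower, 1 was higher (Espn, described above) and 15 did not pass. Among all genes, 3.27% were lower and 0.892% higher. Calb2, which encodes calretinin, had 7.63, 8.04 and 7.71 in GER, against 10.03 and 9.34 in DC (-1.89 ± 0.21, adjusted p = 0.000286), and a mean of 14.84 in HC. Otof differed by -1.44 (adjusted p = 0.014, and 0.19 without DC A and 0.055 without GER C) and Cdh23 at least 1.99-fold lower (adjusted p = 0.0103, but 0.065 without DC A and 0.12 without DC B). Tmem179, a transmembrane protein, was not detected in GER, with 5.36, 5.34 and 5.83, against 9.34 and 9.79 in DC, at least 4.93-fold lower (adjusted p = 7.88e-06), with HC higher still at 10.8. As the mean of all its probes, Otof differed by -0.71 and did not pass (adjusted p = 0.209), and Calb2 and Cdh23 differed by -1.12 and -1.19 and passed. Among those that did not pass, Myo7a was not well above background in either gate and Slc17a8 differed by -0.31. The hair cell list had a median of -0.24, and its part in these differences was not tested.

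Of 5 chains of the class II complex, a family chosen after its values were seen, 3 were lower in GER, and 1 without DC A or DC B. The share lower over all genes was 3.27%. H2-Ab1 had 5.66, 5.85 and 6.37 in GER, not detected, against 7.54 and 8.36 in DC, at least 1.61-fold lower (adjusted p = 0.00151). Cd74, the invariant chain, passed at an adjusted p of 0.0269 but not without DC A (0.078), DC B (0.29), GER A (0.082) or GER B (0.076), and H2-Eb1 passed at 0.0159 but not without DC A (0.10), DC B (0.15) or GER C (0.053). Trem2, a receptor of microglia and macrophages picked out after its values were seen, had 5.67, 5.93 and 5.70 in GER, not detected, against 7.53 in DC A and 8.75 in DC B (adjusted p = 0.00322, and 0.061 without DC B), and a mean of 11.89 in CD271high. Csf1r and C1qb, which define macrophages, were detected on no GER array and on 1 of 2 DC arrays, and did not pass (adjusted p = 0.0922 and 0.211). C1qb was also read at a mean of 10.07 in HC. Laptm5, the 1 member of the macrophage list that passed (adjusted p = 0.0211), had 9.08 in DC A and 10.58 in DC B and an adjusted p of 0.29 without DC B and 0.058 without GER A. In the macrophage list, 7 of 14 genes were lower in GER and 0 higher at an unadjusted p under 0.05. The part of macrophages in these values was not tested.

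In several further families and lists, at most 1 gene passed. Of 62 cytosolic ribosomal proteins, 81 respiratory chain genes and 34 proteasome subunits, 0 passed in limma's fit, with medians of 0.05, 0.02 and 0.07, and 0, 3 and 1 of them had an unadjusted p under 0.05. Of 54 Rab GTPases 1 passed, the vesicle GTPase Rab3b, which was not detected in GER and lower by at least 2.45-fold (adjusted p = 0.0111, but 0.055 without DC A and 0.15 without DC B). Of 20 genes of the response to dissociation, 1 was higher (Nr4a2) and the median was 0.16, with Fos at -0.16 and Egr1 at 0.07.

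The genes that separate GER from DC were next placed among the 5 populations. Of the 90 genes higher in GER, GER had the highest mean for 52 (57.8%), HC and BM for 14 each and CD271high for 10. Of the 330 lower genes, DC had the highest mean for 170 (51.5%), HC for 87 (26.4%), BM for 49 (14.8%) and CD271high for 24 (7.3%). Over all genes tested, GER was the highest population for 15.6% and DC for 12.6%, and since the sides were chosen by the same means, these shares are descriptions. HC lay on the DC side of the midpoint between the gates for 63 of the 90 higher genes and 169 of the 330 lower genes, against 53.9% of all genes. CD271high lay on the GER side for 234 of the 330 lower genes (70.9%) and 32 of the 90 higher genes (35.6%), against 48.6% of all genes. BM lay on the GER side for 208 of the lower genes and 30 of the higher genes (33.3%), against 52.2% of all genes.

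**Figure D5:**
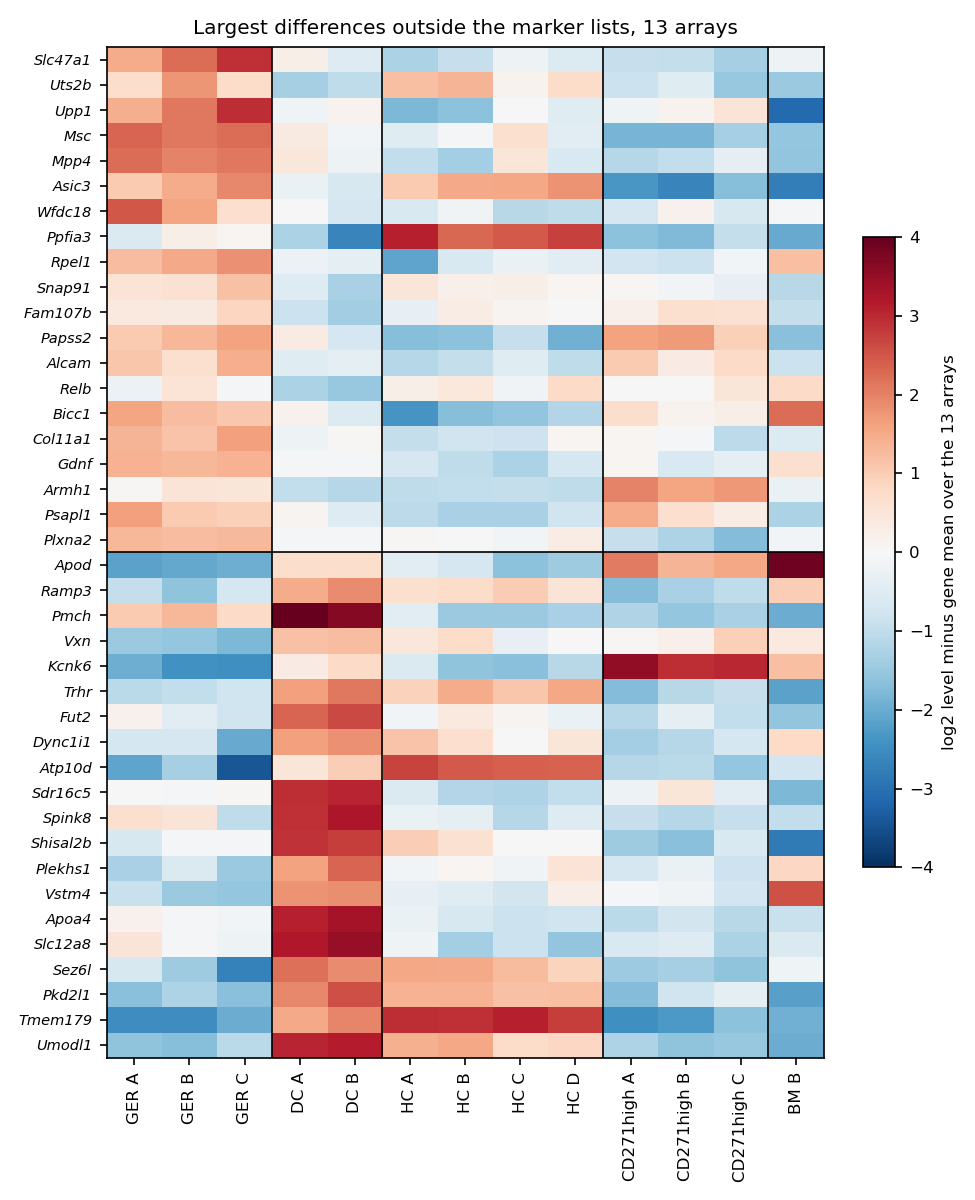
The log2 level minus the mean of the gene over the 13 arrays is coloured for the 20 highest and 20 lowest genes outside the marker lists, with the arrays in columns, GER first and DC next. Msc is high in GER alone, Slc12a8, Apoa4, Spink8 and Sdr16c5 are high in DC alone, and Tmem179 and Atp10d are as high or higher in HC.

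Several genes outside the cell and pathway lists were highest in DC. Sdr16c5, an epithelial dehydrogenase of retinol, had 6.79, 6.73 and 6.85 in GER, not detected, against 9.77 and 9.87 in DC, at least 5.87-fold lower (adjusted p = 7.25e-05). Spink8, a serine protease inhibitor of the Kazal type, had 7.09, 6.97 and 5.43 in GER, not detected, against 9.38 and 9.71 in DC, at least 4.86-fold lower (adjusted p = 0.00137). Fut2, the fucosyltransferase that makes the H antigen in secretions, had 7.73, 7.14 and 6.74 in GER, against 9.89 and 10.19 in DC (-2.84 ± 0.31, adjusted p = 0.000256). Each was lower in HC, CD271high and BM than in DC. Shisal2b and Vstm4, membrane proteins without a settled role, had differences of -3.08 and -3.14 (adjusted p = 0.0004 and 0.000136), and Vstm4 was highest in BM.

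Some genes that differed lie side by side. Among tested genes in chromosomal order, 23 neighbouring pairs were both lower in GER. They included Scnn1g with Scnn1b and Apoc1 with Apoe on chromosome 7, Fbln2 with Wnt7a on chromosome 6 and Gstm2 with Gstm1 on chromosome 3. Wnt7a had 11.13, 11.71 and 11.74 in GER, against 12.62 and 13.12 in DC (-1.34 ± 0.23, adjusted p = 0.00515, and 0.11 without DC B). The glutathione transferases Gstm1 (-1.31 ± 0.23, adjusted p = 0.00515, and 0.065 without DC A) and Gstm2 (-0.91 ± 0.18, adjusted p = 0.0132, and 0.22 without DC B and 0.053 without GER C) are close in sequence, so their probes may share signal. Hrc, which lies beside Ppfia3 and was picked out after its values were seen, was higher in GER with it (1.25 ± 0.21, adjusted p = 0.0042, and 0.065 without DC B). No expected number of such pairs was computed.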

How the data were processed

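RNA of sorted cells was amplified to biotin-labelled cRNA and read on Illumina mouse beadchips, per the labels' protocols. For each probe the deposited table held an intensity and a detection p-value, both made by the authors' scanner software, and per the labels a normalized log2 value, whose method is not given in the sources used here. The intensities were corrected by normexp with the detection p-values (offset 16), quantile normalized and taken to log2 with limma 3.58.1 in R 4.3.3. Probes with a detection p below 0.01 on at least 2 of 13 arrays were kept, and the probe with the highest mean stood for its gene. Of 25697 probes, 23876 were named through RefSeq accessions, 482 through Entrez IDs and 1339 by the symbol in the file. A limma model with 1 mean per population over the 13 arrays gave GER minus DC, with Benjamini-Hochberg adjustment over 10088 genes and a threshold of 0.05. The number of arrays limits the precision. On simulated data for this comparison over 10088 genes, 56% of shifts of 1 and 87% of shifts of 2 log2 units were recovered.

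For a gene not detected on any array of a gate, a fold is a lower bound, the mean of the other gate against the lowest detected signal of each array, and none is given where it was under 1. Genes were named by rule: the 20 highest and 20 lowest that passed outside the cell marker lists, the sort markers, up to 4 that passed in each list, and the 10 highest and 10 lowest transcription factors that passed. Members and lists were chosen with earlier results of these data known. The description of GER C gives another replicate letter than its title, and the title was followed. Alternatives covered background correction, scaling, probe filters, probe choice, the arrays fitted, the beadchip, replicate letters, the variance model and left-out arrays. Same-lettered GER and DC arrays had correlated deviations from their group means of 0.124 (A) and 0.183 (B), and the letters are not stated to mark a shared litter or day, so they were not taken as pairs.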

Additional observations from a re-analysis of the deposited data

How the results depend on the processing

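Of the 420 genes, 1 had the opposite sign with no filter on dim probes and 0 under the other alternatives that gave 1 value per gene. Of the 420 genes, 366 passed the same way with the authors' log2 values, 390 with median scaling, 357 with the beadchip as a block and 279 with beadchip 1 alone. The count of genes higher in GER was 187 with array weights and 28 at an adjusted p below 0.01, and that of lower genes 200 at an adjusted p below 0.01. Leaving out 1 array gave 18 to 85 higher and 141 to 294 lower genes, with the lowest counts without DC B. With the replicate block, 104 genes were higher and 353 lower, and 367 of the 420 passed. The cause of these shifts was not tested, except that fewer arrays enter the fits with 1 left out. Of the 420 genes, 105 lower and 26 higher ones were below detection in 1 gate, so their folds are only bounds, and only for the background-corrected levels. Some settings were run on fewer main genes: 397 and 393 of the 420 were tested under the detection filters set on GER and DC arrays. Without background correction, 76 of 156 named genes that passed had differences over 1.5 times smaller (Igfbpl1 at -3.14 and Tmem179 at -2.09), 0 changed sign and 12 no longer passed, among them Cd74, Fgf1 and Rbp7, while Fgf8 and Cckbr were lost too. The calls of Fgf1, Col11a1, Hs3st6, Lgr5, Rbp7 and Upp1 also ended with the beadchip as a block and with no filter on dim probes. That of Elf3 ended with the block, those of Elf3 and Col11a1 with median scaling, and that of Nr4a2 with the trend and robust variance. With the 5 GER and DC arrays alone, Asic1, Fgf1, Fgf8, Gstm2, Laptm5, Lgr5, Otof, Ppfia3, Rab3b, Rbp7 and Tbx3 did not pass. With the replicate block, Hs3st6, Lgr5, Otof and Ppfia3 did not pass.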
